A study of Mus musculus with 211 samples.

Results

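Csf1r, Ccr2, Cx3cr1, Ly6c2, Adgre1, Mrc1, C1qa, C1qb, C1qc and F13a1, 10 genes that are widely used to recognise monocytes and macrophages were followed through single cells of the adult mouse cochlea. They were found among the 48709 genes of the count table by their Ensembl identifiers, and all 10 were present. A cell was said to hold a gene when at least 10 reads were counted on it. By this measure 87 of 211 cells (41.2%, exact 95% interval 34.5 to 48.2%) held at least 1 of the 10 genes and 20 cells held 2 or more. Ly6c2 alone accounted for 52 of these 87 cells.

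The cells came from CD1 mice carrying an Lfng-EGFP transgene, in which Lfng regulatory sequence drives EGFP in cochlear supporting cells (SCs). Mice were untreated and were used at postnatal day 60 (P60) or 120 (P120), and every cell of both groups carried the transgene. GFP-bright cells were sorted by FACS, captured on Fluidigm C1 chips from pooled mice (8 captures at P60 and 4 at P120) and sequenced as full-length cDNA without molecular identifiers. The capture was taken as the replicate. Captures 9c, 10c, 17c, 19c, 20c and 21c were sequenced on another run than the rest, a run (S047, 55 cells) that holds P60 cells only. The cells of the other captures carry the run labels S059iso1 (68 cells) and S059iso2 (88 cells).

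Monocytes arise in the bone marrow, circulate in the blood and enter tissues, and macrophages are the resident phagocytes of almost every organ, the cochlea included, where they lie in the spiral ligament, the stria vascularis and along the auditory nerve. CSF1R is the receptor that keeps both cell types alive. CCR2 and high Ly6C mark classical monocytes and CX3CR1 marks patrolling monocytes and many resident macrophages, whereas ADGRE1 (F4/80), MRC1 (CD206) and the complement C1q subunits are macrophage products. Several of these genes are also read in other blood cells, since granulocyte precursors, neutrophils and some T cells carry Ly6C, basophils and some T cells carry CCR2, and natural killer cells carry CX3CR1.

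The cells are labelled as SCs, but few of them held SC genes other than Lfng. Of 12 SC genes, 10 were held by at least 1 cell, but besides Lfng (84 cells) none was held by more than 8 cells (Tectb 8, Slc1a3 7), and only 4 cells held 3 or more of them. The neutrophil gene S100a8 was held by 208 cells and S100a9 by 207. Elane or Mpo, which encode enzymes of the primary granules made in granulocyte and monocyte precursors, was held by 67 cells, called precursor-positive here. The depth spanned 41 to 5361476 reads on genes in a cell (median 736455), 47 cells had fewer than 50000 reads, and no pair of cells had identical counts. Capture 10c stood apart with a median of 451 reads.

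Of the 10 genes, Ly6c2 was the one for which misplaced reads could matter most, because its neighbour Ly6c1 is a near copy. The coding sequences of both genes are 393 bases long and differ at 9 positions (97.7% identity, GENCODE vM21 on GRCm38). The first 90 coding bases, which lie within chr15:75110608-75111667 for Ly6c2 and chr15:75047450-75048511 for Ly6c1 on the minus strand and cross an intron, hold 6 of these 9 differences, printed as capitals:
Ly6c2: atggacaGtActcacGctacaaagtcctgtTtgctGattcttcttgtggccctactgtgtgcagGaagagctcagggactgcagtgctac
Ly6c1: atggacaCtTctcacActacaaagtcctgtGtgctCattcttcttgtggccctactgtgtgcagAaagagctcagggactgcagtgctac
The differences gathered at the start of the coding sequence, and the longest stretch without one ran over 188 bases. Of the stretches of 90 bases, the read length, in the 822-base Ly6c2 transcript, 18.3% were also found in Ly6c1. Ly6c1 itself was held by 4 cells only, all of which held Ly6c2, and its reads summed to 0.173% of those of Ly6c2. Within these 4 cells its reads were 0.0433 to 67.7% of those of Ly6c2. A P60 cell of capture 40 had 126 reads of Ly6c1 against 186 of Ly6c2, and a P120 cell of capture 28 had 146 against 1226. Whether any of these reads were misplaced was not tested. Csf1r, Cx3cr1, Adgre1, Mrc1, C1qa, C1qb, C1qc and F13a1 shared no 90-base stretch with another gene's transcripts.

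The 10 genes differed widely in how many cells held them. Ly6c2 was held by 65 cells (30.8%), Csf1r by 12 (5.69%), F13a1 by 10 (4.74%), C1qa by 8 (3.79%), Ccr2 by 6 (2.84%), Adgre1 and C1qb by 4 each (1.90%), Mrc1 by 3 (1.42%), C1qc by 2 (0.948%) and Cx3cr1 by 1 (0.474%). Below Ly6c2, neighbours in this order had overlapping exact intervals, and the interval of Ly6c2 (24.6 to 37.5%) lay above all others. The threshold of 10 reads fell in a sparse part of the values for most genes: the lowest holder had 69 reads of C1qa and the highest cell below the threshold had 8, and for Mrc1 these were 52 and 5. For Ly6c2 they were 11 and 9, for F13a1 10 and 9 and for Adgre1 10 and 2, so that these 3 lists of cells depend on the threshold at their edge. Cells that held a member had been read more deeply, with a median of 1267932 reads against 432636 in the 124 cells that held none. When each cell was thinned to 50000 reads and 1 read counted as holding, 87 of the 164 cells deep enough held a member and 25 held 2 or more. Without thinning, but at 10 reads, 84 and 20 of the same 164 cells did. At 1 read without thinning, the counts were 171 and 79 of all 211 cells. Depth and threshold changed together, so that the likeness of the first counts does not show that depth matters little.

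**Figure D1:**
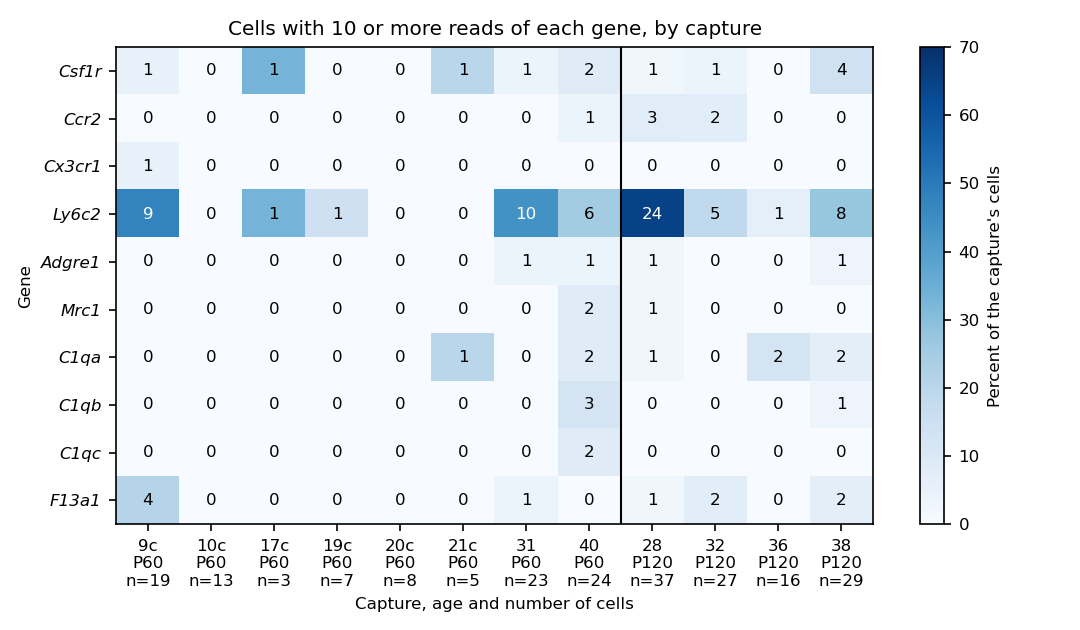
Number of cells with 10 or more reads of each of the 10 genes (rows) in each of the 12 captures (columns, with age and number of cells); the shade gives the percent of that capture's cells. Ly6c2 fills most captures, with 24 cells in capture 28, while C1qb and C1qc sit almost wholly in capture 40 and captures 10c and 20c hold none of the genes.

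Ly6c2, which encodes a surface antigen of the Ly6 family, was found in 9 of 12 captures, 1 more than Csf1r and more than any other member. At P60 it was held by 0 to 47.4% of a capture's cells (median 19.6%, 8 captures). At P120 it was held by 64.9% of the cells of capture 28, 18.5% of capture 32, 6.25% of capture 36 and 27.6% of capture 38. The ranges of both ages overlapped, and capture 28 stood highest of all, holding 24 of the 65 cells and 49.3% of all Ly6c2 reads. The mean share was 29.3 ± 25.3% (SD, n = 4) at P120 and 20.4 ± 19.8% (SD, n = 8) at P60, a difference of 8.87 percentage points that did not pass an exact two-sided permutation test over captures (p = 0.513, adjusted p = 1). Without capture 28 the difference was -2.98 percentage points. Among holders the level ran from 11 to 9322 reads at P60 (median 1566, 27 cells) and from 11 to 32339 at P120 (median 590.5, 38 cells).

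Ly6c2 was read together with neutrophil transcripts. All 65 held S100a9 (as did 207 of all 211 cells), with between 32 and 537907 reads, and the 10 genes of the neutrophil list took a median of 18% of their reads, against 9.65% in the other 146 cells, which had been read less deeply (median 543796 reads against 1715531). Every cell of the data set had at least 4 reads of S100a9, and whether such reads came from the cell itself or from free RNA was not tested, here or for the cells described below. The genes whose cells were most like those of Ly6c2 were I830127L07Rik (Jaccard index 0.569 over 211 cells, 41 cells shared), Stk38 (0.459) and Cd177 (0.453), of which Cd177 encodes a neutrophil surface protein. I830127L07Rik is annotated as a transcribed pseudogene at chr15:75131377-75135128, 19406 bases from Ly6c2 on the same strand. It shared no stretch of 90 bases with the Ly6c2 transcript and 5.55% of the stretches of 30 bases. It was held by 48 cells, 7 of which did not hold Ly6c2, and in the cells holding both its reads ran from 0.750% to 3700% of those of Ly6c2, so that its counts did not follow Ly6c2 in a fixed ratio.

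Ly6c2 split the cells with the strongest primary granule expression. In 27 cells Elane or Mpo reached 1000 reads, and 14 of them held Ly6c2 (51.9%, exact interval 32 to 71.3%). Of these 27 cells, 8 also held at least 3 of 6 basophil genes (Prss34 and Mcpt8, basophil granule proteases, Ms4a2, Fcer1a, Cpa3 and Gata2), and in these 8 cells Ly6c2 had 0 to 2 reads (0 of 8 cells, exact upper limit 36.9%). In the other 19 cells 14 held Ly6c2 (73.7%, exact interval 48.8 to 90.8%), with 186 to 32339 reads in the holders and at most 9 in the other 5 cells. The depth of both groups was alike, with medians of 1918088 and 1850056 reads, and 7 of the 8 basophil-gene cells and 7 of the 19 others came from P120. These groups were formed after the values had been seen and carry no test.

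At lower Elane and Mpo levels Ly6c2 was found at every step. It was held by 6 of the 46 cells without a read of either gene (13%), 23 of 98 cells with 1 to 9 reads (23.5%), 21 of 35 cells with 10 to 99 reads (60%) and 1 of 5 cells with at least 100 but fewer than 1000 reads. Of the 35 cells with 10 to 99 reads, 17 came from capture 28, and 13 of these held Ly6c2, against 8 of the 18 cells from other captures. The median Ly6c2 level among holders was 1186 CPM (reads scaled to the cell's total on genes) without a read of Elane or Mpo. It was 535.4 CPM at 1 to 9 reads, 500 CPM at 10 to 99 reads and 3599 CPM at 1000 or more. The 1 holder at 100 to under 1000 reads had 278.4 CPM. Depth also differed, with medians of 602266, 514603, 1181417, 945460 and 1850056 reads from the lowest step to the highest, and its part was not tested.

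**Figure D2:**
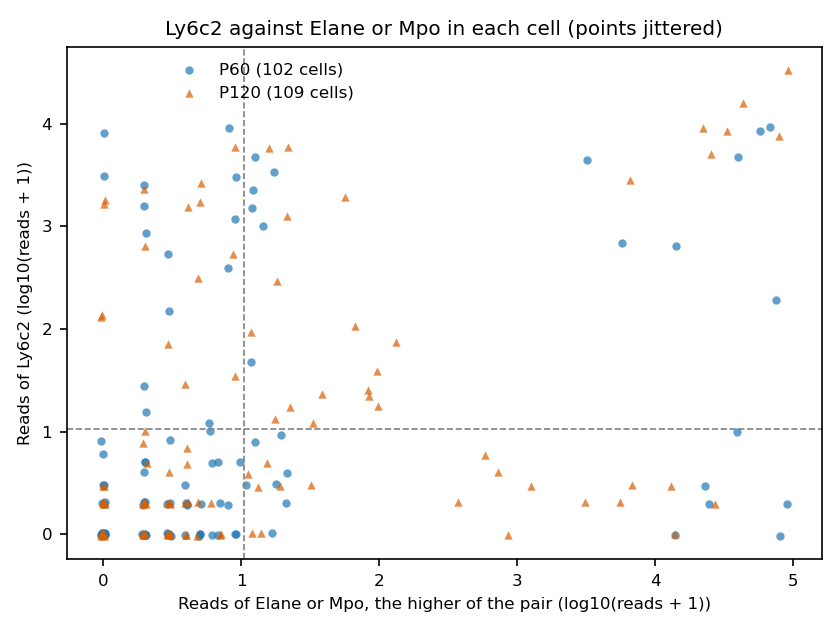
Reads of Ly6c2 in each of 211 cells against the reads of Elane or Mpo, whichever was higher, both as log10(reads + 1), with P60 cells as circles and P120 cells as triangles, points slightly jittered and dashed lines at the threshold of 10 reads. Among the 27 cells with 1000 or more reads of Elane or Mpo, 14 lie high in Ly6c2 and 13 lie below the threshold. Of the cells with fewer than 10 reads of Elane and Mpo, 29 also hold Ly6c2, 6 of them without a read of either gene.

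Csf1r, on chromosome 18, encodes the receptor for CSF1 and IL34. It was held by 12 cells, 6 at each age, from 8 captures. The reads in the 6 P60 cells were 16, 49, 82, 168, 288 and 307, and in the 6 P120 cells 55, 157, 339, 909, 2452 and 2590. The 4 highest P120 cells included 3 of capture 38, and this capture gave 82% of all Csf1r reads, so that the higher P120 level rested on 1 capture. All 12 cells held S100a9 (62 to 229596 reads), as did 207 of all 211 cells. None held as many as 3 of the 9 dendritic and MHC class II genes or of the 18 further macrophage genes. Only 2 of all 211 cells did so for each list, so this lack does not set the Csf1r holders apart. At least 1 of the 12 further monocyte genes was held by 11 of the 12 cells, against 134 of all 211 cells. Among the 12 holders, 1 cell held 7 of these monocyte genes. Il1b, an inflammatory cytokine made by monocytes and by activated neutrophils and named here after its values were seen, was held by 10 of the 12 cells against 55% of all cells, with a median of 4652 reads. The genes with the most similar cells, Gm11714 (Jaccard index 0.214), Ddx55 and Gtdc1 (0.188 each), shared 3 cells each with Csf1r. Of the 12 holders, 6 held no other member.

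Of the ligands of CSF1R, Csf1 was held by 24 cells (12 at each age, highest 3482 reads), and Il34 by none. Of the 5 chemokines that CCR2 and CX3CR1 bind, only Ccl2 was held, by 11 cells. Ccl2 was present with 2119 reads in 1 P60 cell that held Ccr2, the single case of a cell holding this pair among the holders of Ccr2.

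Ccr2 (chr9:124101950-124113557, plus strand), the receptor that draws monocytes towards CCL2, was held by 6 cells, and their other transcripts differed widely. In 3 P120 cells with 16, 172 and 244 reads of Ccr2, all 6 basophil genes were held and took 4.27 to 9.23% of the reads, with Prss34 at 104965, 27968 and 48905 reads in the same order. In 2 P120 cells of capture 28, with 431 and 3118 reads of Ccr2, the T cell receptor complex gene Cd3e was at 237 and 2269 reads, Cd3d at 522 and 5560 reads, and S100a9 at 32 and 202 reads. The first of them also held 5 of the 6 basophil genes, which took 0.0223% of its reads. These 2 cells were the only ones of the 211 that held Cd3e, and they also held Ly6c2, with 1226 and 5764 reads. Cd3d was not confined to them. It was held by 37 of the 211 cells, among them all 4 holders of Adgre1 and the sixth holder of Ccr2 (288 reads of Cd3d). The sixth cell, from P60 capture 40 with 288 reads of Ccr2, had 164348 reads of S100a9 and 27.4% of its reads on the neutrophil list, beside 229 reads of Adgre1 and 49 of Csf1r. It also held 7 of the 12 further monocyte genes, among them Klf4 (1123 reads) and Ly86 (47 reads), more than any other of the 211 cells. Of the 6 holders of Ccr2, only the 2 that held Cd3e also held Ly6c2. Klf4, a transcription factor gene of the monocyte list (Jaccard index 0.5, 4 cells shared), D5Ertd579e and Gzmb, which encodes a cytotoxic granule protease (0.444 each), had the cells most like those of Ccr2. The 5 cells at P120 and 1 at P60 were spread over captures 28 (3 cells), 32 (2 cells) and 40 (1 cell), too few cells to test.

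Cx3cr1 (chr9:119901616-120069879, minus strand), the fractalkine receptor, was held by a single cell of P60 capture 9c, with 439 of its 445 reads in the whole data set. This cell held 3 of 6 T and natural killer cell genes, with 3091 reads of Nkg7, 71 of Trbc1 and 45 of Klrb1c. It had no read of Cd3e, Cd3d or Cd8a. Nkg7 was widespread in these data, being held by 41 cells, of which 38 were precursor-positive. The Cx3cr1 cell had 18 reads of S100a9 and held no other member. No P120 cell held Cx3cr1, which allows a share of up to 3.33% (exact interval).

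The C1q subunits, whose genes lie within 18675 bases on chromosome 4 (C1qb chr4:136880129-136886187, C1qc chr4:136889804-136893065, C1qa chr4:136895917-136898803, all on the minus strand of GRCm38), are chains of 1 protein and are read together in macrophages. Of the 10 cells that held any of them, only 2 held all 3, both from P60 capture 40. The first had 2299 reads of C1qb, 259 of C1qc and 69 of C1qa, together with 16230 reads of Mrc1, the mannose receptor, which equals 46315 CPM and 95.5% of all Mrc1 reads. It also had 2218 reads of H2-Aa and 1394 of Cd74, parts of MHC class II, and 3639 of the lysosomal protease gene Ctss. It had 490 reads of Apoe and 192 of Ly86, was the only cell to hold Cd163, a scavenger receptor gene, and also had 14781 reads of S100a9, 1 read of Adgre1 and no read of Csf1r. The second had 2234 reads of C1qb, 1094 of C1qa and 146 of C1qc with no read of Mrc1, H2-Aa or Cd74, and with 163350 reads of S100a9.

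C1qa was more often held without its partners. Of its 8 holders, 6 had no read of C1qb or C1qc, with 83, 152, 170, 208, 501 and 1089 reads of C1qa, in captures 36 (2 cells), 38 (2 cells), 28 and 21c. All of these 6 cells held S100a9 and Il1b, and none held Cd74 or H2-Aa. Of all 211 cells, 207 held S100a9, 116 Il1b, 7 Cd74 and 4 H2-Aa. S100a9 and the lack of Cd74 and H2-Aa were thus common to nearly all cells. C1qb alone of the subunits was found in 2 cells, with 22 reads in a P60 cell of capture 40 and 63 in a P120 cell of capture 38. The first of these held Mrc1 (52 reads), Cd74 (571), H2-Aa (398) and Ctss (946), the same genes as the strongest Mrc1 cell of that capture. The second held Ly6c2 (1769 reads), Adgre1 (10) and F13a1 (10) with low counts of H2-Aa (39), H2-Ab1 (34), H2-Eb1 (13) and Apoe (44) beside 484772 reads of the neutrophil gene Ngp. The cells most like those of C1qa by Jaccard index were those of Gm45053 (0.188), Crybg2 and Gm39214 (0.182 each), which shared 2 or 3 cells with it.

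Mrc1 (chr2:14229392-14332057, plus strand) was held by 3 cells, 2 of them the P60 cells of capture 40 just described. The third, a P120 cell of capture 28 with 685 reads, had 41811 reads of Elane, 15569 of Ly6c2 and no read of C1qa, C1qc, H2-Aa or Cd74. Adgre1 (chr17:57358691-57483527, plus strand), the F4/80 antigen, was held by 4 cells from captures 31, 40, 28 and 38, with 427, 229, 133 and 10 reads, none of them precursor-positive. All 4 had 164348 to 229596 reads of S100a9, and each held at least 1 other member, Ly6c2 in 3 cells and Csf1r in 2. F4/80 and the C1q subunits were thus found in the same cell only once, in the P120 cell of capture 38.

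F13a1 (chr13:36867178-37050244, minus strand), the A chain of coagulation factor XIII, made by monocytes and megakaryocytes, had 10 holders, 5 at each age, of which 8 were precursor-positive. In 5 of them Elane had 14328 to 92762 reads and Ly6c2 646 to 32339 reads, with 27, 44, 88, 112 and 258 reads of F13a1. The highest level, 541 reads, was in the P120 cell of capture 32 that held all 6 basophil genes with Ccr2 and Csf1r. A further cell, with 35 reads of F13a1, had 6625 reads of the B cell gene Cd79a and 32 of Mpo. The remaining 3 holders had 10, 11 and 19 reads, close to the threshold, and 1 of them was read to only 18672 reads. Parp1 (Jaccard index 0.462, 6 cells shared), B430212C06Rik (0.417) and 4930453N24Rik (0.385) had the most similar cells.

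Of the 87 cells, 67 held 1 member, 14 held 2, 4 held 3 and 2 held 4. Ly6c2 made up 52 of the 67 cells with a single member, while of the 35 cells with any other member 20 held at least 2 members. Of the 45 pairs of genes, 22 shared at least 1 cell and 11 shared exactly 1. The pair seen in most cells was Ly6c2 with F13a1, in 6 cells, which is 60% of the F13a1 holders and 9.23% of the Ly6c2 holders. Adgre1 and Ly6c2 shared 3 cells. Csf1r shared 2 cells each with Ccr2, Ly6c2, Adgre1 and F13a1, and so did Ccr2 with Ly6c2, Mrc1 with C1qb and each pair of C1q subunits. No holder of Adgre1, Mrc1, C1qb or C1qc held its gene alone, whereas 80% of Ly6c2 holders and 50% of Csf1r and of C1qa holders did. The cells with 4 members were the Mrc1-rich P60 cell of capture 40 and the P120 cell of capture 38 with Ly6c2, Adgre1, C1qb and F13a1. None of the 211 cells held Csf1r with Mrc1, C1qb or C1qc.

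**Figure D3:**
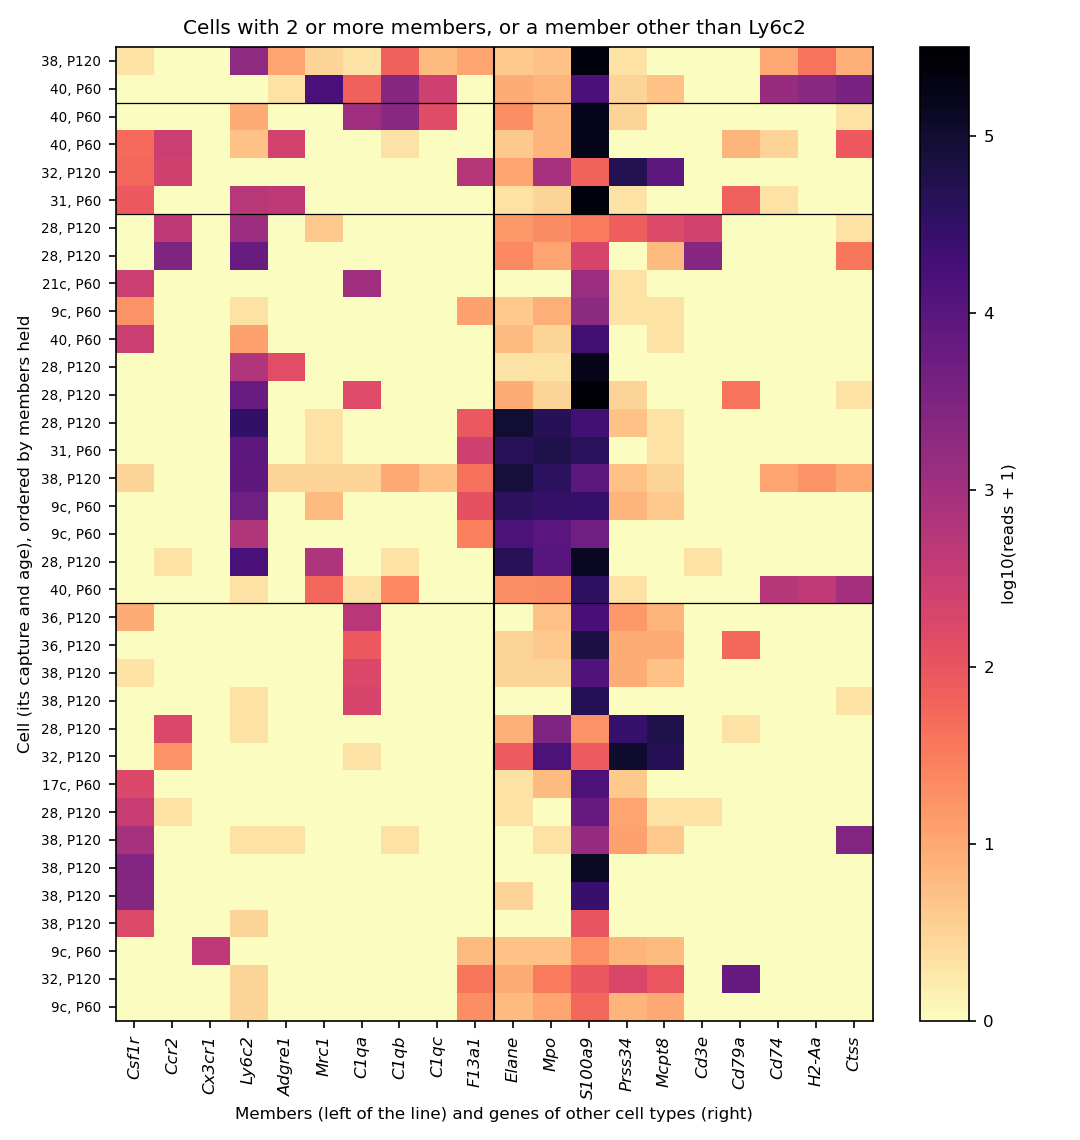
Reads, as log10(reads + 1), in the 35 cells that held a member other than Ly6c2, 1 row per cell with its capture and age, for the 10 members (left of the vertical line) and for genes of other cell types (right); horizontal lines separate cells with 4, 3, 2 and 1 members. S100a9 is dark in most rows, Prss34 and Mcpt8 are dark in 3 of the 6 Ccr2 rows, Cd3e in 2 of them, and Cd74 and H2-Aa mainly in 2 rows of capture 40.

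The overlap with Elane and Mpo was then taken over all members. Of the 87 cells holding a member, 43 were precursor-positive (49.4%, exact interval 38.5 to 60.4%), as were 11 of the 20 cells with 2 or more members and 24 of the 124 cells with none. Capture 28 held 26 of the 67 precursor-positive cells and 26 of the 87 member cells, and without it the share was 37.7%. By gene, precursor-positive cells made up 36 of 65 holders of Ly6c2, 8 of 10 of F13a1, 5 of 6 of Ccr2, 2 of 3 of Mrc1, 2 of 4 of C1qb, 1 of 2 of C1qc, 1 of 8 of C1qa, 1 of 12 of Csf1r and none of those of Adgre1 and Cx3cr1. Many of these calls rested on few reads: with 1000 reads of Elane or Mpo required, an alternative chosen after the data were seen, 16 of the 87 cells (18.4%) remained, and of the Ccr2 holders only 2 of the basophil-gene cells. Precursor-positive cells had been read more deeply than the others, with a median of 1700682 reads against 543796, and the part of depth in the overlap was not tested. With the member counts thinned the share was 43.7% of 87 cells, but Elane and Mpo were still called on the full counts. This value therefore does not equalise depth for the overlap.

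Within captures, the shares of holders were compared between precursor-positive and other cells in the 6 captures that had at least 3 cells of each kind (9c, 31 and 40 at P60 and 28, 32 and 38 at P120). For Ly6c2 the shares in precursor-positive and other cells were 60 and 42.9% in capture 9c, 85.7 and 25% in capture 31, 23.1 and 27.3% in capture 40, 73.1 and 45.5% in capture 28, 18.2 and 18.8% in capture 32 and 50 and 24% in capture 38. Precursor-positive cells were higher in 4 of 6 captures, and the mean difference of 21.1 ± 23.5 percentage points (SD, n = 6) did not pass the exact two-sided sign-flip permutation test (p = 0.125, adjusted p = 0.180). For F13a1 the share was higher in precursor-positive cells in 5 captures and equal at 0% in capture 40, with means of 20.2 and 1.86% and a difference of 18.4 ± 18.8 percentage points (SD, n = 6, exact permutation p = 0.0625, adjusted p = 0.116). The largest part came from capture 9c (60 and 7.14%), with only 5 precursor-positive cells, and without it the difference was 11.5 percentage points. For Csf1r it was lower in 5 of 6 captures, with means of 1.52 and 9.44% and a difference of -7.93 ± 9.64 percentage points (SD, n = 6, exact permutation p = 0.156, adjusted p = 0.218). With 6 captures the smallest p this test can give is 0.0312. Of the 6630 genes tested 2228 had an unadjusted p under 0.05, and 0 (0%) reached an adjusted p under 0.05. Even a gene at the smallest p had an adjusted p of 0.0930 in this sign-flip test. No member could therefore have passed after adjustment, and the adjusted values decide nothing about them. The median difference over all these genes was 16.7 percentage points in favour of the more deeply read precursor-positive cells, so that the difference of Ly6c2 and of F13a1 was close to that of the median gene and that of Csf1r lay on the other side of zero.

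**Figure D4:**
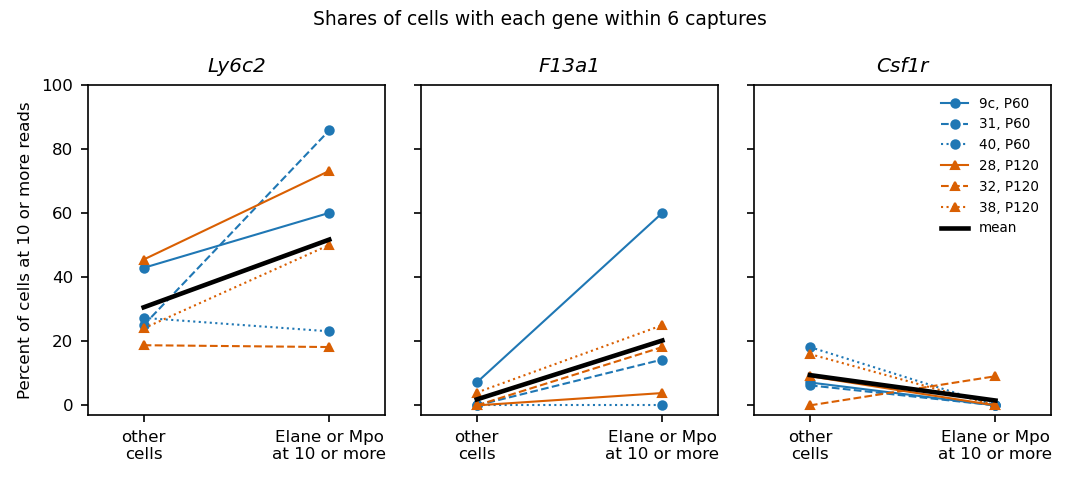
Percent of cells with 10 or more reads of Ly6c2, F13a1 and Csf1r among cells with Elane or Mpo under 10 reads (left points) and at 10 or more reads (right points), 1 thin line per capture (P60 circles, P120 triangles) and the mean of the 6 captures as a thick line. The right point lies above the left in 4 captures for Ly6c2 and in 5 for F13a1, and below it in 5 for Csf1r.

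The summed counts of the same 6 captures gave the levels. Of the members 3 passed the filter on low counts. With captures as blocks, edgeR's quasi-likelihood test called 136 of 6907 genes (1.97%), 62 higher (0.898%) and 74 lower (1.07%) in precursor-positive cells. None of the 3 members was among them, while Elane and Mpo, which define the classes, were. In this test 1334 genes had an unadjusted p under 0.05. A sum over cells cannot tell fewer holders from less RNA per holder. For Csf1r the TMM-scaled sums in precursor-positive cells were 0, 0, 0.0397, 0.0611, 1.87 and 0.371 CPM in captures 9c, 31, 40, 28, 32 and 38, against 2.30, 6.71, 30, 50.5, 0.483 and 481 CPM in the other cells, lower in 5 of 6 captures. In reads, the sums of Csf1r in precursor-positive cells were only 0, 0, 1, 3, 56 and 3 in the same order of captures. The log2 difference was -8.74 (SE 2.69, edgeR adjusted p = 0.0910), where the median over all genes was 1.06, so that Csf1r stood at -9.80 relative to that median. Csf1r thus passed the filter mainly through the other cells. With most precursor-positive sums near the floor, the size of its difference is not a measured ratio of levels. DESeq2 called Csf1r lower (adjusted p = 2.359e-09) and F13a1 higher (adjusted p = 0.00248), but it called 42% of all genes tested (25.6% higher and 16.4% lower). For F13a1 edgeR gave 5.67 (SE 2.16, adjusted p = 0.159) and for Ly6c2 -0.50 (SE 1.06, adjusted p = 0.831), the latter -1.56 relative to the median gene. F13a1 passed the filter mainly through precursor-positive cells, since its sums in the other cells were 41, 0, 0, 0, 0 and 15 reads. The difference of F13a1 and the DESeq2 calls of F13a1 and Csf1r carry the same limit. The sums of Ly6c2 in precursor-positive cells lay above those of the other cells in captures 9c, 31, 28 and 38 (731.9, 1459, 1717 and 1589 against 620.6, 789.5, 1370 and 572 CPM) and below those in captures 40 and 32 (200.5 and 1.20 against 1041 and 540.6 CPM).

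Between the ages no member passed a test. At P60 36 cells (35.3%) and at P120 51 cells (46.8%) held a member, with captures spanning 0 to 66.7% (median 30.8%) at P60 and 18.8 to 70.3% (median 38.9%) at P120. In the summed counts, 10 of 8346 genes (0.12%) passed edgeR's test, 5 in each direction (0.0599% each), and 443 had an unadjusted p under 0.05, and 4 members were among those tested. The log2 difference of P120 from P60 was 2.29 (SE 2.01) for Csf1r, 0.78 (SE 1.95) for F13a1, 0.38 (SE 2.03) for C1qa and 0.07 (SE 1.40) for Ly6c2, each with an edgeR adjusted p of 1. DESeq2 called 14 genes (0.168%, 0.12% higher and 0.0479% lower) and no member, and gave no adjusted p for Csf1r and C1qa. Without capture 38 the difference of Csf1r was -1.75. In the shares of cells, Csf1r was held by 5.05 ± 6.04% (SD, n = 4) at P120 and 8.91 ± 11.9% (SD, n = 8) at P60, and F13a1 by 4.25 ± 3.53% and 3.18 ± 7.38%, with exact permutation p of 0.610 and 0.887 (adjusted p = 1 for both). None of 6630 genes (0%) passed this test after adjustment, 88 having an unadjusted p under 0.05. In the 6 captures of the shared sequencing lanes, the only ones in which run and age are not tied, the difference of the Ly6c2 share between P120 and P60 was -4.93 percentage points.

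Other genes of these lineages were as uneven as the members. Of 12 further monocyte genes, 11 were held by at least 1 cell, led by Cd14 (94 cells), Nr4a1 (48) and Zeb2 (42), while Ms4a6c and Ly86 were held by 2 cells each and Vcan by none. Of 18 further macrophage genes 10 were held, led by Apoe (22 cells), Cd68 (20) and Aif1 (17), and Siglec1, Folr2, Lyve1, Trem2, Ms4a7, Marco, Vsig4 and Clec4f by none. Of the 211 cells, 2 held 3 or more of these macrophage genes and 15 held 3 or more of the monocyte genes. Of the microglia genes Gpr34 was held by 6 cells, and of the dendritic and MHC class II genes Cd74 (7), H2-Ab1 (5), H2-Aa and H2-Eb1 (4 each) led. Among the other complement genes C5ar1 (117 cells), C3 (83) and Calr (58) were frequent. Lyz2, Tyrobp and Ptprc, genes of all myeloid or blood cells, were held by 176, 160 and 144 cells. Between precursor-positive and other cells, edgeR's test called 136 of 6907 genes (1.97%). Of the genes tested, 0 of 4 monocyte and 0 of 3 macrophage genes passed, too few genes to set apart from that share. Of the neutrophil genes 8 of 10 passed, all lower. Of the 6 basophil genes 3 were tested and all 3 passed, higher. No cell with Elane and Mpo under 10 reads held 3 or more basophil genes. The basophil count was therefore close to fixed by the classes and is no separate result. Elane and Mpo themselves were also among the 136 genes. The median log2 differences of the monocyte, macrophage, neutrophil and basophil genes were -3.43, -1.49, -2.99 and 8.74 (over all genes 1.06). Between the ages none of the 5 monocyte and 3 macrophage genes tested passed, where 10 of all 8346 genes tested (0.12%) did.

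The GFP score of the holders, a value without unit from images of the captured cells, spanned that of the data set. Its median was 361 over all cells (31 to 1000), 360 for Ly6c2 holders, 416.5 for Csf1r holders, 128.5 for Ccr2 holders and 176.5 for F13a1 holders. Lfng itself was held by 42 of the 87 member cells and by 42 of the 124 others.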

How the data were processed

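The cells, ages and groups were taken from the sample labels, and the capture and sequencing run from the deposited cell table. According to the methods, the authors removed doublets by scatter in the sort, left out wells with unhealthy cells, endothelial cells and outliers, aligned the reads with STAR to GRCm38 and deposited raw read counts per gene and cell, checked here to be whole numbers. The sources differ on the sequencer, and the read length of 90 bases is that of the methods. The deposited count of uniquely mapped reads was not needed, and the GFP intensity is a score the authors normalized in a way not given in the sources used here. The sources differ on the number of cochleae pooled per capture. No doublet caller was run, since each library is 1 well. Of the gene identifiers, 48349 of 48709 matched a symbol. The 92 spike-in rows were left out of all sums.

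A gene counted as held at 10 or more reads. The exact Clopper-Pearson intervals cover counting error at 95%, and reads without molecular identifiers are not independent molecules. Counts summed per capture (12 captures), or per capture and class (captures with at least 3 cells in each), were tested with edgeR 4.0.16 (TMM, filterByExpr, quasi-likelihood F test, capture as block for the classes; SE taken from the F statistic) in R 4.3.3, with DESeq2 1.42.0 as the other tool and Benjamini-Hochberg adjustment over all genes tested. Shares of cells were compared by exact permutation over captures (495 arrangements for the ages, 64 sign flips for the classes) for genes held by at least 10 cells. The scripts that test across genes were tested on simulated data. Captures are pools of mice, so p-values measure the spread between pools.

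The 10 members, the gene lists and the tests were chosen with earlier results of these data known. Named are the members, Elane and Mpo, the 3 genes of each list held by most cells, the 3 genes with the highest Jaccard index to each member held by at least 5 cells (out of genes held by 5 to 60 cells), and cells with 2 or more members. Other genes of the lists were named after their values were seen. Some results under this rule are not reported here. Alternatives covered the minimum of reads, thinning each cell to 50000 reads, depth, the filter, the tool, the class definition, the block, the lanes and leaving out each capture.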

Additional observations from a re-analysis of the deposited data

Results flagged for a closer look

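In 9 of 22 sets of captures of 1 age, the share of cells holding a gene in 1 capture lay far from the next capture by Dixon's test, which chance alone does in about 1 in 20 sets of normally spread values. Most of these genes were held by so few cells that a single capture held them. At P60 capture 40 stood apart for C1qb (12.5% of cells), Mrc1 (8.33%), C1qc (8.33%) and Ccr2 (4.17%), each 0% in the other 7 captures. Capture 9c stood apart for F13a1 (21.1%, next capture 4.35%) and for Cx3cr1 (5.26%, others 0%), and capture 21c for C1qa (20.0%, 1 of 5 cells, next capture 8.33%). At P120 capture 28 stood apart for Mrc1 (2.70%) and capture 38 for C1qb (3.45%), each resting on 1 cell with the other captures at 0%. By run label, S059iso1 held all 4 holders of C1qb, both holders of C1qc and 5 of the 6 holders of Ccr2. The part of the run in this was not tested.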

How the results depend on the processing

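Leaving out 1 capture at a time moved the genes called between the ages over 1 to 16 (10 with all captures) and those called between precursor-positive and other cells over 38 to 63 (136 with all). The counts between the ages were 22 without a filter on low counts and 2 in the captures of lanes 2 and 3. Those between the classes were 2902 with DESeq2, 5 when Elane and Mpo were both required at 10 reads, 4 when 1 read of either sufficed, 55 at 1000 reads (chosen after seeing the data) and 145 without the capture block. No paired analysis was possible by replicate number because the labels give none that the captures share. The cause of these shifts was not tested. No gene passed in the shares of cells under any setting run. With 32 sign flips (1 capture left out of the classes, or 1000 reads required) or 15 arrangements (lanes 2 and 3) no gene could have reached 0.05. With the 64 sign flips of all 6 captures a gene at the smallest p still had an adjusted p of 0.0930. Those settings therefore say nothing about stability.

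Between the ages, the log2 difference of Ly6c2 became -0.47 with DESeq2 and -0.18 in lanes 2 and 3, and leaving out captures gave -0.88 to 0.51, with -1.75 to 3.27 for Csf1r, -2.29 to 3.37 for C1qa and -0.81 to 1.64 for F13a1. The negative ends were without capture 28 for Ly6c2, 38 for Csf1r, 36 for C1qa and 32 for F13a1. Between the classes Ly6c2 became 1.02 when 1 read of Elane or Mpo sufficed, 0.21 without the block and -1.05 to 0.19 over the captures left out. The difference in share between the ages became 9.14 percentage points for Csf1r at 1 read and 4.33 after thinning, and for Ly6c2 -4.93 in lanes 2 and 3 and -2.98 to 16.6 over the captures left out.

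With 1 read in place of 10, 171 cells held a member and 79 held 2 or more, and 13 held 2 or more at 100 reads. The precursor-positive share of the member cells was 20.7% at 100 reads of Elane or Mpo, 18.4% at 1000 reads, and 37.7 to 56.2% over the captures left out. Members held by fewer than 10 cells could not be compared in shares at this depth, and 47 cells under 50000 reads could miss a gene that deeper cells show.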
